A study of Mus musculus with 40 samples.

Results

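The change from 1 hr to 3 hr of lipopolysaccharide (LPS) was followed in wild-type (WT) bone marrow-derived macrophages (BMDMs), which are macrophages grown in culture from bone marrow cells. The comparison used 8 of the 40 RNA-seq libraries of the study, 4 taken 1 hr and 4 taken 3 hr after LPS was added, and each of 4 WT mice (25, 69, 87 and 88) gave 1 library at each time. A gene entered when its mean value over these 8 libraries was at least log2 of 5, which 13110 of the 27179 genes in the table met. The other 32 libraries came from the same WT mice untreated or after 6 and 9 hr, and from 4 mice lacking the RNA-binding protein CPEB4 (*Cpeb4*-/-) at the same 5 times. The study asked how CPEB4 and tristetraprolin (TTP, encoded by *Zfp36*) set the stability of mRNAs during the LPS response, and the step from 1 to 3 hr lies between its earliest time and its later ones.

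The WT mice were adult males of a mixed C57BL/6J and 129 background. Their marrow cells had been differentiated in medium conditioned by L cells, which supplies M-CSF, and all 8 libraries came from cells given 10 ng/ml LPS, so neither group is an unstimulated control. Mice 25 and 88 belonged to batch 1 and mice 69 and 87 to batch 2. Values are regularized log values (rlog), a log2 scale corrected for library size on which changes of weakly expressed genes are shrunken. A difference is the rlog at 3 hr minus the rlog at 1 hr, so a difference of 1 is a doubling on that scale.

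LPS is sensed by the receptor complex of TLR4, MD-2 and CD14. Its adaptor MyD88 leads within minutes to NF-kB and MAP kinases, which switch on immediate early transcription factors and the first cytokines, whereas the adaptors TRAM and TRIF act from endosomes and induce interferon-beta. Interferon-beta then binds its own receptor and, through JAK kinases and STAT proteins, turns on a second wave of genes, while unstable early mRNAs carrying AU-rich elements are cleared by proteins such as TTP.

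The cells carried macrophage mRNAs at both times. All 28 genes of a macrophage list passed the filter, among them *Csf1r*, the M-CSF receptor, which lay between 15.65 and 15.93 at 1 hr and between 15.53 and 15.91 at 3 hr. Defining markers of most other marrow cells were low. Of these, 7 of 12 neutrophil genes, 11 of 13 lymphocyte and NK cell genes and 7 of 8 mast cell and basophil genes failed the filter. So did 7 of 8 erythroid and platelet genes and 7 of 10 stromal and endothelial genes, and *Ly6g* and *Pax5* had negative rlog values in all 8 libraries. Of 8 genes listed for dendritic cells only 2 failed it. The genes of this list summed on the linear scale to 565 to 645 per library at 1 hr and 743 to 809 at 3 hr. Summed on the linear scale, the 12 neutrophil genes came to 108 to 188 per library at 1 hr and 113 to 165 at 3 hr, against 851629 to 971402 and 883381 to 915618 for the macrophage genes. The stromal and endothelial sum was 301 to 341 at 1 hr and 769 to 1027 at 3 hr, through *Pdgfrb*, *Kdr* and *Cdh5*, which all rose, while the fibroblast collagens *Col1a1*, *Col1a2* and *Col3a1* had means of at most 1.64. Of the members that could be tested, 0 of 5 neutrophil genes were called (limma), and *Cd4*, *Gata2* and *Itga2b* fell by 0.51, 0.74 and 0.59. *Xcr1* and *Bst1*, both from the list for dendritic cells, rose by 0.56 and 0.41. The calls of *Cd4* (−0.39) and *Xcr1* (0.34) were lost without mouse 69, and those of *Gata2* and *Itga2b* without mouse 69 (−0.60 and −0.46) or mouse 87 (−0.60 and −0.61). Of 9 RNAs that can follow RNA quality, 5 fell and 0 rose with a median of −0.31, and 2 fell without mouse 69 or without mouse 87. The part of these genes in the results was not tested.

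Of the genes tested, 25.6% (3351) had a higher value at 3 hr and 29% (3807) a lower one, taking an adjusted p under 0.05 from limma with the mouse as a block. The median difference over all genes was −0.05 and its median standard error (SE) 0.09. Larger changes leaned upward: 853 genes rose and 621 fell by at least 1 on the log2 scale, and 39 rose and 11 fell by at least 3. The 4 values of one time all lay on one side of the 4 values of the other for 6455 genes, or 49.2% of those tested. In bulk RNA a lower value can reflect fewer cells making an mRNA or less of it per cell, and these cannot be told apart.

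**Figure D1:**
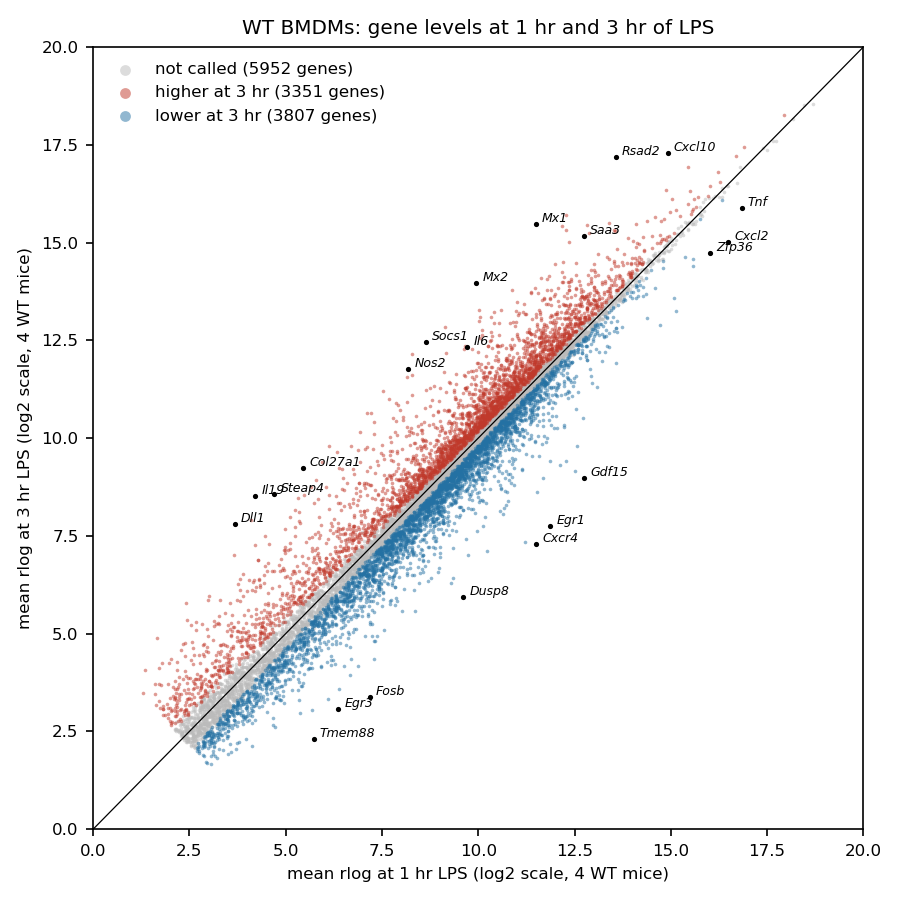
Mean rlog at 3 hr (vertical axis) against mean rlog at 1 hr (horizontal axis), both on a log2 scale over 4 WT mice, with 1 point for each of the 13110 genes. Red points (3351) passed the test as higher at 3 hr, blue points (3807) as lower and grey points (5952) did not pass, and named genes far from the diagonal include *Il19*, *Mx1* and *Mx2* above it and *Cxcr4* and *Egr1* below it.

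The 12 largest rises were *Il19*, *Dll1*, *Mx2*, *Mx1*, *Edn1*, *Steap4*, *Socs1*, *B3gnt7*, *Col27a1*, *Rnd1*, *Tnfsf15* and *Abtb2*, with differences from 4.32 down to 3.67. *Il19*, a cytokine of the IL-10 family on chromosome 1 (130932656 to 130945457 of mm10), read 4.23, 4.29, 4.18 and 4.13 at 1 hr in mice 25, 69, 87 and 88 and 8.66, 8.50, 8.67 and 8.28 at 3 hr (difference 4.32, SE 0.10, adjusted p = 1.6e-07). *Dll1*, a Notch ligand, read 3.75, 3.53, 3.79 and 3.63 at 1 hr and 7.80, 7.62, 7.94 and 7.83 at 3 hr (difference 4.12, SE 0.10). In both genes the 4 values of a time lay close together and the times did not overlap.

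*Mx1* and *Mx2*, interferon-induced GTPases that restrict viruses, are neighbours on chromosome 16, and the annotation lists both as transcribed pseudogenes in the reference strain. *Mx1* read 11.62, 11.44, 11.46 and 11.46 at 1 hr and 15.51, 15.38, 15.55 and 15.44 at 3 hr (difference 3.98, SE 0.06). *Mx2* rose by 4.02 (SE 0.07). *Edn1*, which encodes the vasoconstrictor endothelin-1, went from 8.28 ± 0.08 to 12.16 ± 0.09 (SD, n = 4), and *Tnfsf15*, the TNF family ligand TL1A, from 7.52 ± 0.11 to 11.21 ± 0.18. *Rnd1* differed from the other 11 rises in having already passed its untreated mean of 7.35 by more than 1 at 1 hr, where its mean was 9.14. The other 11 were within 1 of their untreated means at 1 hr.

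The 12 largest falls were *Cxcr4*, *Egr1*, *Nr4a1*, *Fosb*, *Gdf15*, *Dusp8*, *Tmem88*, *Egr2*, *Egr3*, *Dusp5*, *Zfp395* and *Cnr2*, with differences from −4.22 to −2.95. *Cxcr4*, the receptor for the marrow-retention chemokine CXCL12, read 11.49, 11.61, 11.49 and 11.46 at 1 hr and 7.18, 7.30, 7.26 and 7.43 at 3 hr (difference −4.22, SE 0.07, adjusted p = 8.6e-08 from limma). *Egr1*, an immediate early zinc-finger factor, read 11.99, 11.88, 11.85 and 11.78 at 1 hr and 7.70, 7.90, 7.72 and 7.64 at 3 hr (difference −4.14, SE 0.07). *Gdf15*, a stress-induced member of the TGF-beta family, read 12.63, 12.37, 13.01 and 12.95 and then 9.07, 8.98, 9.08 and 8.81 (difference −3.75, SE 0.12). The groups were apart in all 3 genes, and the spread among mice was wider at 1 hr in *Gdf15*.

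The untreated mean divides the falls into genes that came back down and genes that went below their starting level. *Egr1* had a mean of 7.81 untreated and 7.74 at 3 hr, and *Gdf15* 8.67 and 8.99. *Cxcr4* stood at 10.93 untreated and 7.30 at 3 hr, *Zfp395* at 9.86 and 6.30, and *Cnr2*, the cannabinoid receptor of immune cells, at 8.80 and 4.35. Of the 12 largest falls, 9 had a 1 hr mean at least 1 above the untreated mean. Of all 621 falls of at least 1, 82 had such a 1 hr mean, 519 were within 1 of the untreated mean at 1 hr and 20 were already lower by at least 1.

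**Figure D2:**
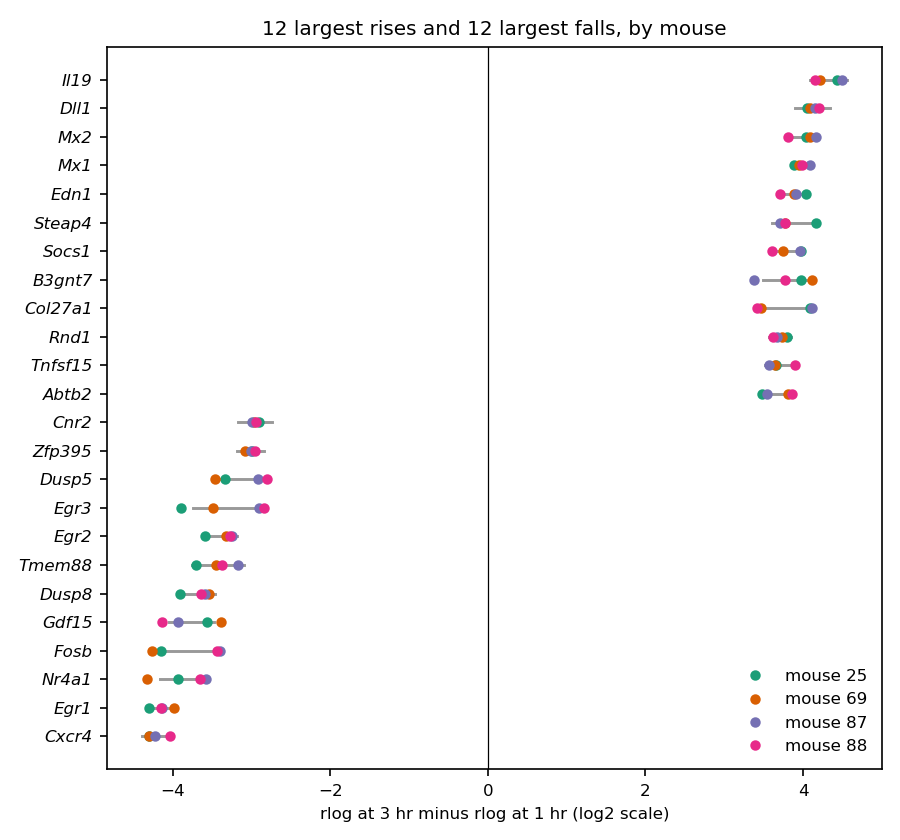
Difference between 3 hr and 1 hr (horizontal axis, rlog, log2 scale) for the 12 largest rises and 12 largest falls, with a coloured point for each of the 4 mice and a grey bar for the 95% interval of the limma difference. All 4 points of each gene lie on one side of 0, and among the falls the points of *Egr3* and *Fosb* are spread the most.

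Promoters of the genes at both ends were read from RefSeq (build GRCm38.p6, the same assembly as mm10), as windows of 250 bases before to 50 after a transcript start, which 10122 of the 13110 genes have. The ISRE core searched for was GAAANNGAAA on either strand, the letters of the interferon-stimulated response element, and 3.25% of all windows held it. Of the 50 largest rises 36 had a window and 8 of these (22.2%) held the ISRE core, against 0 of 32 windows among the 50 largest falls. The GAS letters TTCNNNGAA, which STAT dimers bind, were in 10 of the 36 (27.8%) and in 2 of the 32 (6.25%), with 6.86% over all windows. The cyclic AMP response element (CRE) TGACGTCA was in 3 of the 32 windows of falls (9.38%), 1 of the 36 windows of rises (2.78%) and 3.24% of all. The kappa-B letters GGGANNTTCC were in 3 of the 36 (8.33%) and 0 of the 32, with 1.53% over all, and the AP-1 letters TGANTCA in 3 (8.33%) and 1 (3.13%), with 5.19% over all. These matches are descriptions of letters, and no factor binding was measured.

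The 200 bases before the start are shown for the 3 named rises with the largest change whose window held the ISRE core, and for 2 of the named falls that held a CRE, with the matched letters in capitals. They lie at chr1:130940116-130940315 (minus strand), chr13:42301276-42301475 (plus strand), chr16:10785537-10785736 (minus strand), chr7:142095285-142095484 (minus strand) and chr7:45526269-45526468 (minus strand), in this order. The *Il19* and *Dusp8* windows belong to a transcript that starts inside the annotated gene.
Il19: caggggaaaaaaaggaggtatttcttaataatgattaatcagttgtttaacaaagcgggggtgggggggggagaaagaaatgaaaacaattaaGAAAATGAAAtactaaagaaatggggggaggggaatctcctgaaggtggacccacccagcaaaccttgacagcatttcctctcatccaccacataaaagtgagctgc
Edn1: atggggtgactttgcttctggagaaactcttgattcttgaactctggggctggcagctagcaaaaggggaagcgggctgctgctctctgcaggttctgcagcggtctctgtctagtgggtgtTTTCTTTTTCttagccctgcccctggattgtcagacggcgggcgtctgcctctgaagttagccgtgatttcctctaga
Socs1: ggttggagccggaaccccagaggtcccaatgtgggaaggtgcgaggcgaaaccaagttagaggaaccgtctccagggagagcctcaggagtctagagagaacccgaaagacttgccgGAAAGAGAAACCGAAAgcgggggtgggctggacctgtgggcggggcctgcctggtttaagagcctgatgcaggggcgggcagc
Dusp8: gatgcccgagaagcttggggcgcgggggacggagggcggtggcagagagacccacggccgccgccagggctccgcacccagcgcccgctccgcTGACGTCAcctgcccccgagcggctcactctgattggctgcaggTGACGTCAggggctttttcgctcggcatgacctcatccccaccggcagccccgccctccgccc
Ppp1r15a: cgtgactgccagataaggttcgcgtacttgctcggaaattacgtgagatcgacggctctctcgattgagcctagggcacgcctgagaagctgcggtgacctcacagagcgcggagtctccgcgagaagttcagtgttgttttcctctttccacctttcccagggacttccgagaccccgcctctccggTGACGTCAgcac
In *Socs1* 2 overlapping ISRE cores begin 83 and 77 bases before the start, in *Il19* the match begins 107 bases and in *Edn1* 78 bases before it. *Dusp8* holds 2 CREs, beginning 107 and 63 bases before its start, and *Ppp1r15a* 1 that begins 12 bases before it.

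Most immediate early transcription factors fell. Of 26 genes 20 fell and 2 rose, with a median difference of −0.99. *Fos*, a subunit of AP-1, read 11.70, 11.90, 11.34 and 11.35 at 1 hr and 9.57, 9.65, 9.46 and 9.51 at 3 hr (difference −2.03, SE 0.08, adjusted p = 1.4e-06 from limma). *Fosb* fell by 3.81 (SE 0.18) and *Ier2* by 1.31 (SE 0.10). The 2 that rose were *Nr4a3*, an orphan nuclear receptor, from 2.98 ± 0.57 to 4.93 ± 0.50 (SD, n = 4), and *Atf3*, by 0.21. Without mouse 25, 69 or 87, 1 gene of the group rose, *Nr4a3*. *Nr4a3* thus moved against its relative *Nr4a1*, which fell by 3.87 (SE 0.12).

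Feedback inhibitors of kinase signalling went both ways, with 9 of 22 higher and 10 lower. Of 9 dual-specificity phosphatases, which switch off MAP kinases, 6 fell and 3 rose: *Dusp8* fell by 3.67 (SE 0.09), *Dusp5* by 3.13 (SE 0.12), *Dusp4* by 2.43 and *Dusp1* by 0.78 (SE 0.07), and *Dusp14* and *Dusp16* rose by 1.47 and 1.06. Of 8 SOCS family genes, whose proteins block JAK kinases, 5 rose. *Socs1* read 8.62, 8.57, 8.73 and 8.66 at 1 hr and 12.60, 12.32, 12.68 and 12.26 at 3 hr (difference 3.82, SE 0.08), *Cish* rose by 2.95 and *Socs3* by 0.52 (SE 0.06), while *Socs5* fell by 0.26.

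Among subunits and inhibitors of NF-kB 19 of 24 rose, with a median difference of 0.38. *Nfkb1*, which encodes p105 and p50, rose by 1.36 (SE 0.07) and *Tnip3*, an A20-binding inhibitor, by 1.38 (SE 0.06). *Nfkbid* fell by 1.72 (SE 0.06) and *Nfkbiz*, its relative, by 0.73. *Nfkbia* was not called, with a difference of −0.16 (95% interval −0.39 to 0.06), nor was *Tnfaip3*, encoding A20, with −0.05 (−0.22 to 0.11). Both were called lower under quantile normalization (−0.35 and −0.22). In batch 1 alone 10 of the 24 rose.

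The cytokines of the TNF and IL-1 families included both directions, with 12 of 18 higher and 3 lower. *Tnf* read 16.81, 16.82, 16.90 and 16.83 at 1 hr and 15.87, 15.92, 15.88 and 15.83 at 3 hr (difference −0.97, SE 0.05, adjusted p = 5.5e-06 from limma), and *Tnfsf9*, the ligand 4-1BBL, fell by 1.84 (SE 0.06). Its receptor *Tnfrsf9* rose by 3.16 (SE 0.14). *Il1b* overlapped between the times, at 15.75 to 15.92 and 15.61 to 15.89 (difference −0.05, 95% interval −0.20 to 0.11), and *Il1a* had a difference of 0.34 (adjusted p = 0.064 from limma). The receptor antagonist *Il1rn* rose by 1.64 and the TRAIL gene *Tnfsf10* by 3.13.

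In the IL-6 and IL-12 families and IL-10, 10 of 19 genes rose and 7 fell. *Il6* read 9.56, 9.64, 9.72 and 9.93 at 1 hr and 12.41, 12.08, 12.52 and 12.28 at 3 hr (difference 2.61, SE 0.10, adjusted p = 9.3e-07 from limma). The subunits of IL-12 and IL-27 rose, *Il12b* by 1.05 (SE 0.07), *Il12a* by 2.56, *Il27* by 2.98 and *Ebi3* by 0.84, whereas *Il23a*, which pairs with the *Il12b* product to make IL-23, fell by 1.35. *Lif* and *Osm*, both ligands of gp130, fell by 1.83 and 1.44. *Il10*, the main inhibitory cytokine of macrophages, had a small difference of 0.25 (SE 0.09, adjusted p = 0.041 from limma), which was called under 7 of 16 other settings. Without mouse 69 its difference was 0.31 (adjusted p = 0.06 from limma) and without mouse 87 0.15 (adjusted p = 0.2 from limma). Without mouse 69, 4 of the 19 fell.

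The CXC chemokines went both ways. Of the neutrophil-attracting CXC chemokines *Cxcl1* fell from 14.39 ± 0.30 to 13.06 ± 0.14 (SD, n = 4) and *Cxcl2* from 16.49 ± 0.09 to 15.01 ± 0.13, while *Cxcl3* rose by 1.50 (SE 0.07) and *Cxcl5* by 1.32. The CXCR3 ligands, which attract activated T cells and lie side by side on chromosome 5, all rose. *Cxcl9* read 7.14, 6.84, 7.20 and 7.22 and then 10.81, 10.31, 10.83 and 10.63 (difference 3.55, SE 0.07), and *Cxcl10* 14.85, 14.73, 14.98 and 15.09 and then 17.38, 17.19, 17.39 and 17.23 (difference 2.38, SE 0.07).

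*Cxcl11*, the third of them and a transcribed pseudogene in the reference strain, read 8.37, 7.93, 8.38 and 7.95 at 1 hr and 12.36, 10.96, 12.21 and 10.70 at 3 hr in mice 25, 69, 87 and 88 (difference 3.40, SE 0.20). The times did not overlap, but mice 25 and 87 stood above mice 69 and 88 at both. Of 13 CC chemokines 11 rose and 0 fell, led by *Ccl17* (difference 3.03, SE 0.13) and *Ccl5* (2.61, SE 0.08). *Ccl2*, the monocyte attractant, had a difference of −0.04 (95% interval −0.23 to 0.15).

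Of the colony-stimulating factors *Csf2*, which encodes GM-CSF, read 9.32, 8.88, 9.74 and 9.46 at 1 hr and 6.40, 6.29, 6.80 and 6.16 at 3 hr (difference −2.94, SE 0.12, adjusted p = 1.2e-06 from limma). *Csf3* fell by 0.93 (SE 0.18) and *Csf1* rose by 0.47 (SE 0.12), a call lost without mouse 87 (difference 0.39, adjusted p = 0.066 from limma). Of 8 genes for these factors and their receptors 3 rose and 2 fell, and without mouse 87 1 rose.

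Interferon-beta itself was past its highest measured level while its targets rose. *Ifnb1* read 8.09, 7.73, 8.74 and 8.80 at 1 hr and 7.65, 7.48, 7.99 and 7.53 at 3 hr (difference −0.67, SE 0.16, adjusted p = 0.0089 from limma), from an untreated mean of 3.64, and every mouse had the lower value at 3 hr although the groups overlapped. The interferon-alpha genes *Ifna1*, *Ifna2*, *Ifna4* and *Ifna5* did not pass the filter. The receptor chain *Ifnar1* rose by 0.48 (SE 0.07) and the kinase *Jak2* by 2.37 (SE 0.10).

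All 38 interferon-stimulated antiviral genes tested were higher at 3 hr, by 0.52 to 4.02 with a median of 1.75, where 25.6% of all genes were. *Rsad2*, encoding viperin, read 13.64, 13.39, 13.61 and 13.64 at 1 hr and 17.29, 17.09, 17.25 and 17.11 at 3 hr (difference 3.62, SE 0.06, adjusted p = 8.6e-08 from limma). *Ifit1*, a sensor of foreign RNA, rose by 3.44 (SE 0.06) and *Isg15*, a ubiquitin-like modifier, by 2.08 (SE 0.10). The smallest rises were *Bst2* (0.52), *Sp100* (0.85) and *Oas1a* (0.97). At 1 hr *Rsad2* was 13.57 on average against 13.14 untreated, and *Mx1* 11.50 against 11.57. Several of these genes have close copies (the Oas, Ifi, Slfn and Trim30 families), and how their reads were divided is uncertain.

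The GBP and IRG GTPases, which attack vacuoles that hold microbes, rose in the same way, with 15 of 15 higher and a median of 2.45. *Gbp5* read 12.43, 12.40, 12.24 and 12.36 and then 14.99, 14.98, 14.98 and 15.11 (difference 2.66, SE 0.06), *Gbp2* rose by 2.29 (SE 0.05) and *Irgm1* by 2.33 (SE 0.05). *Gbp10* did not pass the filter. Of 15 interferon-regulated transcription factors 10 rose, among them *Stat2* by 2.00 (SE 0.06), *Irf7* by 1.83 (SE 0.07) and *Batf2* by 2.77 (SE 0.07). *Irf1* stood at 14.83 to 15.07 at 1 hr and 14.98 to 15.08 at 3 hr (difference 0.06, 95% interval −0.06 to 0.19), and *Irf4* fell by 1.94 (SE 0.14).

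Genes of antigen presentation differed by class. Of 20 class I genes 16 rose and 0 fell, led by the peptide transporter *Tap1* (difference 1.77, SE 0.07), with *B2m* at 0.28 (SE 0.05). None of the 11 class II genes passed the test (limma), from −0.12 to 0.27, and *Ciita*, their master regulator, read 7.73, 7.47, 7.54 and 7.55 and then 7.78, 7.72, 7.60 and 8.25. *Ciita* was called higher under 3 other settings, and without mouse 88 2 class II genes were called higher. Of 17 costimulatory and checkpoint genes 14 rose, including *Cd40* by 1.23 (SE 0.08), *Cd274*, which encodes PD-L1, by 1.91 (SE 0.08) and *Cd80* by 0.59 (SE 0.09), while *Cd83* fell by 1.51 (SE 0.06).

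**Figure D3:**
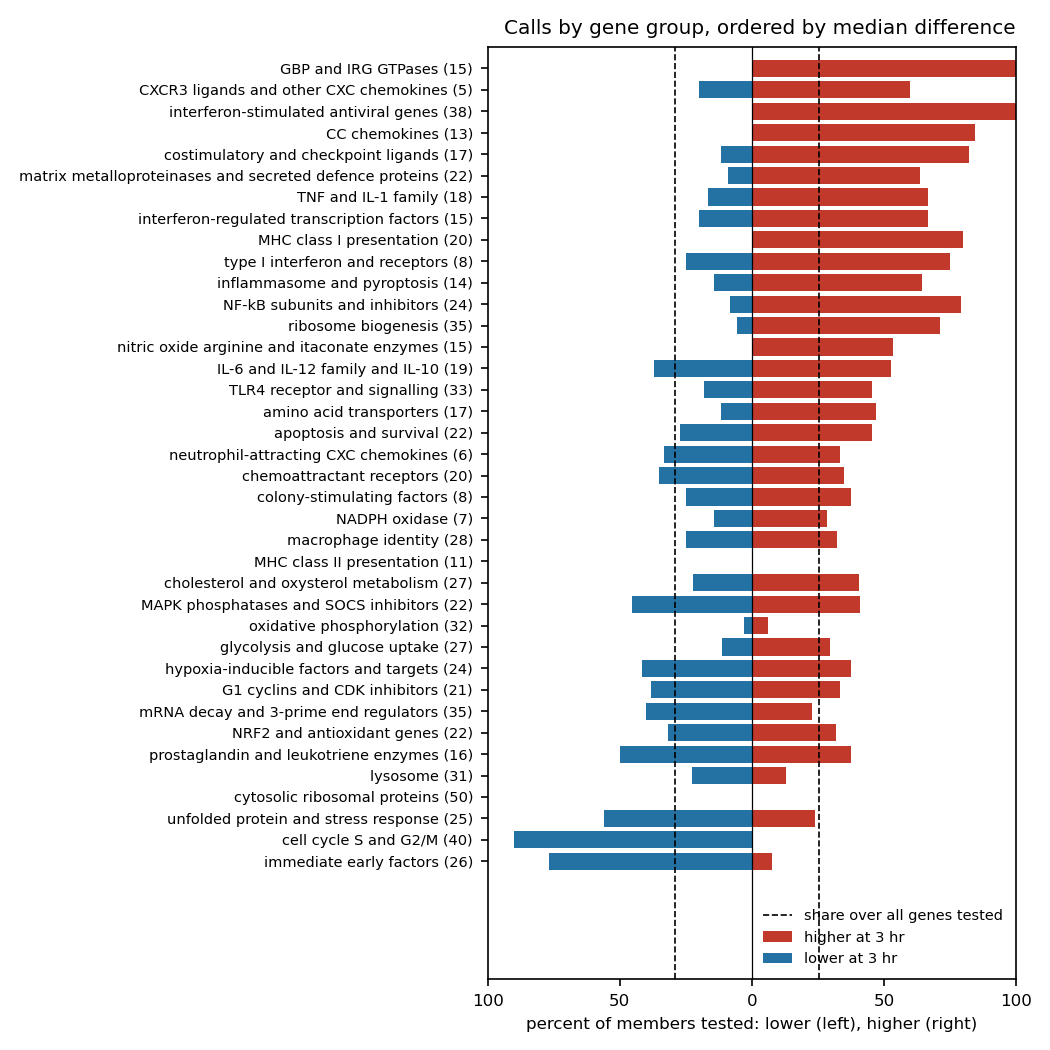
Share of each gene group's tested members (number in brackets) that passed the test as lower (blue, to the left) or higher (red, to the right) at 3 hr, ordered by median difference. Dashed lines mark the shares over all genes, 29% lower and 25.6% higher, and the bars of the interferon-stimulated and GBP groups reach 100% on the right, while the cell cycle group reaches 90% on the left.

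Of 33 genes of TLR4 and its signalling 15 rose (45.5%) and 6 fell (18.2%), next to 25.6% and 29% of all genes, with a median of 0.21. *Tlr4* itself had a difference of 0.21 (SE 0.08, adjusted p = 0.071 from limma) and *Cd14* 0.05 (SE 0.07). *Myd88* rose by 0.75 (SE 0.05), *Tlr3*, the sensor of double-stranded RNA, by 1.70 (SE 0.07) and *Map3k8* by 1.49, whereas *Tab1*, an activator of the kinase TAK1, fell by 1.00 (SE 0.07). In the inflammasome group 9 of 14 rose and 2 fell: *Casp4*, the caspase that binds LPS in the cytosol, rose by 1.54 (SE 0.09) and *Casp1* by 1.22, but *Nlrp3* fell by 0.77 (SE 0.10) and *Nlrp1b* by 1.23 (SE 0.13).

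Of 35 regulators of mRNA decay, the subject of the study, 14 fell (40%) and 8 rose (22.9%), next to 29% and 25.6% of all genes, with a median of −0.09. *Zfp36* read 15.99, 16.00, 16.05 and 16.00 at 1 hr and 14.77, 14.81, 14.75 and 14.59 at 3 hr (difference −1.28, SE 0.06, adjusted p = 2.4e-06 from limma), and its relatives *Zfp36l1* and *Zfp36l2* fell by 2.81 (SE 0.10) and 2.44. *Btg2*, an adaptor of the CCR4-NOT deadenylase, fell by 2.21 and *Tob1* by 0.77, while 8 CNOT subunits had differences from −0.33 (*Cnot6l*) to 0.38 (*Cnot1*), of which 2 were called higher and 1 lower. *Zc3h12a*, which encodes the nuclease Regnase-1, had a difference of −0.01 (95% interval −0.16 to 0.14). Without mouse 87, 4 of the 35 rose, and without mouse 69, 5.

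*Cpeb4*, on chromosome 11 (31870104 to 31935635), read 9.35, 9.46, 7.68 and 8.08 at 1 hr and 9.26, 10.06, 8.82 and 10.88 at 3 hr in mice 25, 69, 87 and 88. The difference of 1.11 had an SE of 0.40 (adjusted p = 0.047 from limma), mouse 25 had the opposite sign (−0.09), the times overlapped, and the gene was not called under 7 of 16 other settings. Without mouse 69 the difference was 1.29 (adjusted p = 0.078 from limma) and without mouse 87 1.11 (adjusted p = 0.12 from limma). Without mouse 88, whose own difference was 2.80, it was 0.55 and still called, although mice 25, 69 and 87 differed by −0.09, 0.60 and 1.14. The variance in that fit is moderated by eBayes, so the call is no measure of the spread among these mice. Its paralogs *Cpeb1* and *Cpeb2* fell by 0.82 and 1.49. Among the 182 named genes *Cpeb4* had the largest SE, and libraries with high *Cpeb4* for their time also had higher values of long transcripts. Across 12794 genes the deviation from the group mean correlated with log2 transcript length at 0.38, 0.39, −0.43 and −0.31 in mice 25, 69, 87 and 88 at 1 hr and at −0.30, 0.19, −0.42 and 0.45 at 3 hr. With trends of transcript length and GC content removed from each library, *Cpeb4* was still called. How much of the size of its difference goes with this trend was not tested.

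Among genes that use arginine or make itaconate 8 of 15 rose and 0 fell. Inducible nitric oxide synthase, *Nos2*, read 8.21, 8.15, 8.16 and 8.21 at 1 hr, next to an untreated mean of 8.11, and 11.77, 11.83, 11.64 and 11.82 at 3 hr (difference 3.58, SE 0.06, adjusted p = 8.6e-08 from limma). The arginine importer *Slc7a2* rose by 2.44 (SE 0.09), *Ass1*, which recycles citrulline to arginine, by 1.20, and *Acod1*, the enzyme that makes itaconate, by 1.49 (SE 0.07). *Arg1*, which competes for arginine, read between 3.33 and 3.78 and then between 2.93 and 4.58, without a call.

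In prostaglandin synthesis *Ptgs2*, encoding COX-2, rose by 1.62 (SE 0.06), *Ptges*, the next enzyme to PGE2, by 1.72 (SE 0.07) and the receptor *Ptger2* by 1.80 (SE 0.08). The degrading enzyme *Hpgd* fell by 0.73 (SE 0.06), and the leukotriene enzymes *Alox5*, *Alox5ap*, *Lta4h* and *Ltc4s* fell by 0.21 to 0.47. The group as a whole had 6 of 16 higher and 8 lower, and without mouse 87 only 2 were lower, without mouse 69 3 and without mouse 25 5. Secreted defence proteins and proteases rose in 14 of 22 genes, among them *Saa3* (difference 2.43, SE 0.12), *Lcn2* (2.49, SE 0.09), *Serpina3g* (2.75, SE 0.14) and *Mmp13* (2.35, SE 0.06), and the urokinase gene *Plau* fell by 1.65 (SE 0.06).

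Metabolic genes moved singly more than as groups. Of 27 glycolysis genes 8 rose (29.6%) and 3 fell (11.1%), next to 25.6% and 29% of all genes, with a median of −0.04. *Pfkfb3*, which makes the activator of phosphofructokinase, rose by 2.13 (SE 0.08) and *Hk2* by 1.42 (SE 0.05), while *Slc2a1* had a difference of −0.04 (95% interval −0.24 to 0.16). Under quantile normalization 11 of the 27 fell, and 7 in a fit of all 20 WT libraries. Of 24 hypoxia genes 9 rose and 10 fell: *Hif1a* rose by 0.73 (SE 0.10) and its target *Vegfa* fell by 1.87 (SE 0.16). Cholesterol genes had 11 of 27 higher and 6 lower, with *Ch25h* up by 0.46 (SE 0.08). Without mouse 69, 7 of the 27 rose. In batch 1 alone 2 rose and 3 fell, and *Ch25h* was not called there (difference 0.44).

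Stress and antioxidant genes leaned down or were mixed. In the unfolded protein response 14 of 25 fell and 6 rose: *Ppp1r15a*, the inducible subunit that removes the phosphate from eIF2-alpha, fell by 1.54 (SE 0.09) and its constitutive relative *Ppp1r15b* rose by 1.43 (SE 0.07). Under quantile normalization 2 of these 25 rose. Of 22 antioxidant genes 7 rose and 7 fell, with the metallothionein *Mt2* up by 1.86 (SE 0.09), the cystine importer *Slc7a11* up by 1.47 (SE 0.15) and the iron exporter *Slc40a1* down by 1.61 (SE 0.09). Without mouse 87, 4 of the 22 fell. Of 17 amino acid transporters 8 rose and 2 fell, and of 7 subunits of the phagocyte oxidase 2 rose, led by *Cybb* (difference 0.70, SE 0.07).

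Of 22 genes of apoptosis and survival, most of them BCL2 family members, 10 rose and 6 fell. *Mcl1* fell by 1.16 (SE 0.05) and *Pmaip1*, which encodes NOXA, by 2.44 (SE 0.08), while the death receptor *Fas* rose by 1.05 (SE 0.07). *Bcl2a1a* read 3.83, 3.61 and 3.87 in mice 25, 69 and 87 but 6.43 in mouse 88 at 1 hr, and 4.33, 4.30, 4.11 and 7.28 at 3 hr. Its reads may be shared with the near-identical *Bcl2a1b* and *Bcl2a1d*, which rose by 0.71 and 1.02.

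Cell cycle genes of S phase and mitosis were lower in 36 of 40 and higher in 0, with a median of −0.51, against 29% of all genes lower. *Cdc6*, which loads the replicative helicase, read 7.87, 7.81, 7.99 and 7.79 at 1 hr and 5.97, 5.73, 5.98 and 5.96 at 3 hr (difference −1.96, SE 0.09, adjusted p = 1.9e-06 from limma), and *Cdt1* fell by 1.73. *Ccnb1*, the mitotic cyclin, fell by 0.38 (SE 0.07), and *Mki67* had a difference of 0.07 (95% interval −0.22 to 0.35). In batch 1 alone 18 of the 40 fell. Around G1, *Ccnd1* fell by 0.67 (SE 0.07) and *Myc* by 1.75 (SE 0.07), *Ccnd2* rose by 2.57 (SE 0.06) and the inhibitor *Cdkn1a* by 0.29 (SE 0.06). The call of *Cdkn1a* was lost under quantile normalization (difference 0.10) and in batch 1 alone (0.28).

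The machinery for growth separated into ribosome assembly and ribosomes. Of 35 ribosome biogenesis genes 25 rose and 2 fell, with a median of 0.29 and the largest rise in *Wdr43* (1.28, SE 0.06), and in batch 1 alone 8 rose. Of 50 cytosolic ribosomal protein genes 0 passed the test in limma, with differences from −0.23 to 0.25 and a median of −0.11, but 11 were lower without mouse 25 and 18 under quantile normalization. Of 32 oxidative phosphorylation genes 2 rose and 1 fell (5 rose without mouse 88), and of 31 lysosomal genes 4 rose and 7 fell. Among the lysosomal genes *Tfeb*, the master factor of lysosomal genes, fell by 2.13 (SE 0.09) and its relative *Mitf* rose by 1.18 (SE 0.08), and 18 of the group were lower under quantile normalization, 11 with length and GC trends removed and 4 without mouse 87.

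Of 28 macrophage identity genes 9 rose (32.1%) and 7 fell (25%), shares near those over all genes (25.6% and 29%). The transcription factor *Cebpa* fell by 1.56, whereas *Spi1*, encoding PU.1, rose by 0.51 (SE 0.07). The scavenger receptors *Marco* and *Msr1* rose by 1.60 (SE 0.08) and 1.28, and *Cd163* fell by 1.13. *Csf1r* had a difference of −0.13 (95% interval −0.31 to 0.05). Under quantile normalization 12 of the 28 fell. Of 20 chemoattractant and purine receptors 7 rose and 7 fell: besides *Cxcr4*, *Cx3cr1* fell by 0.86, and the adenosine receptor *Adora2a* rose by 2.54 (SE 0.07) and the formyl peptide receptors *Fpr2* and *Fpr1* by 1.94 and 1.50.

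The time of the highest WT mean was noted for the large changes over 0, 1, 3, 6 and 9 hr. Of the 853 genes higher by at least 1, 277 were highest at 3 hr, 541 at 6 hr, 30 at 9 hr and 5 untreated. Of the 621 lower by at least 1, 327 were highest untreated, 257 at 1 hr, 7 at 6 hr and 30 at 9 hr. A gene higher at 3 hr than at 1 hr cannot be highest at 1 hr, so the choice of genes fixes part of this order, and the other times were not compared by a test. *Il6* stood at 12.32 at 3 hr and 12.46 at 6 hr, *Cxcl10* at 17.30 and 17.03, *Nos2* at 11.77 and 14.09 and *Dll1* at 7.80 and 6.66.

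**Figure D4:**
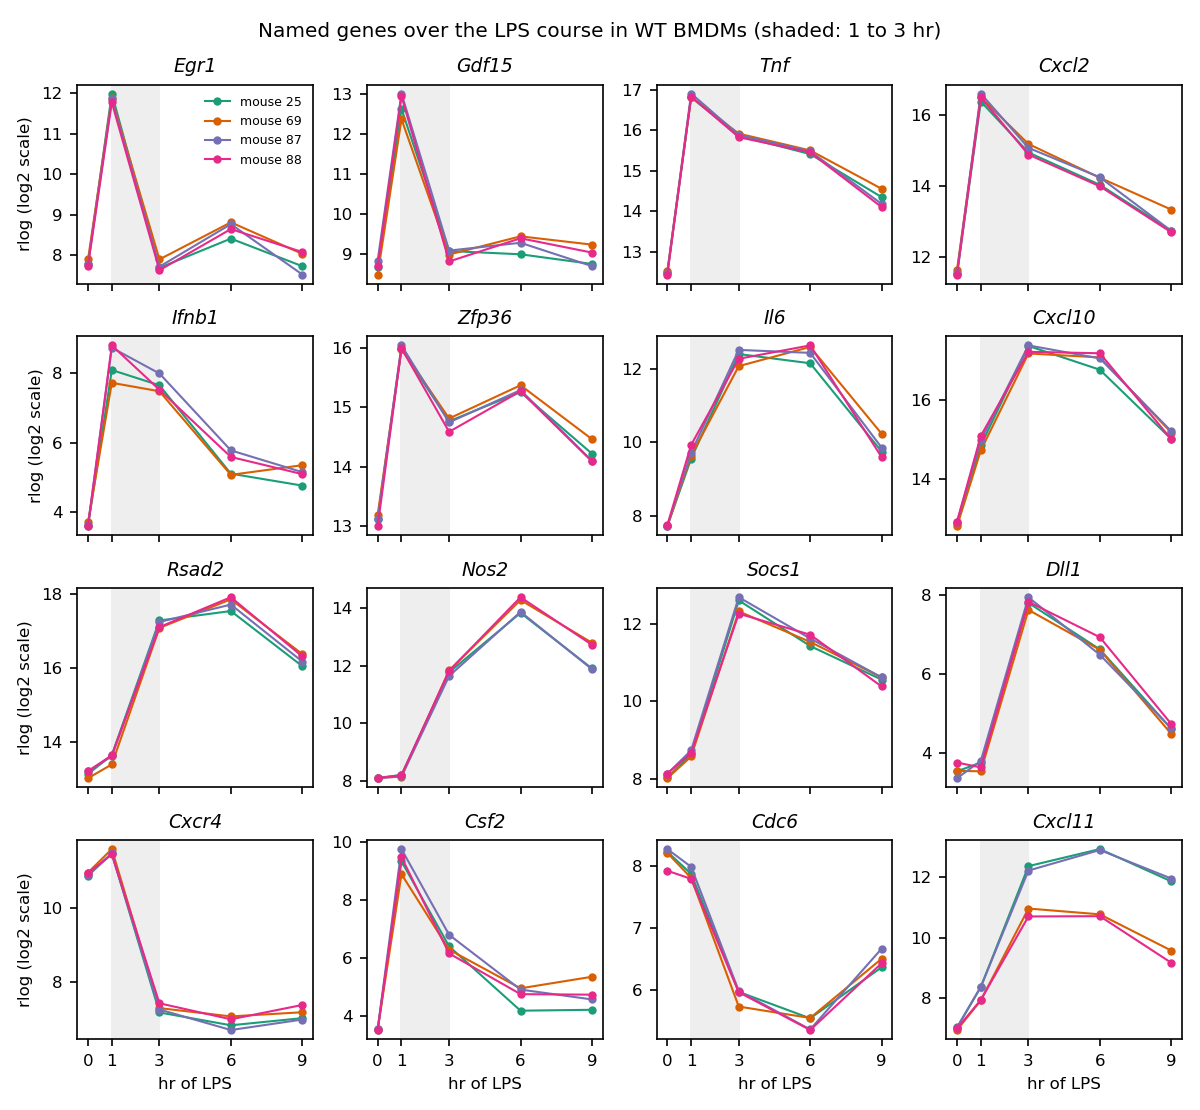
rlog values (vertical axes, log2 scale, each with its own range) of 16 genes in the 4 WT mice over 0, 1, 3, 6 and 9 hr of LPS (horizontal axis), with 1 line per mouse and the span from 1 to 3 hr shaded. *Egr1*, *Gdf15*, *Tnf*, *Cxcl2*, *Ifnb1* and *Zfp36* peak at 1 hr, *Rsad2* and *Nos2* climb within the shaded span and beyond it, *Cxcr4* and *Cdc6* drop within it, and *Cxcl11* runs higher in mice 25 and 87 than in mice 69 and 88.

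The same step was compared with that of *Cpeb4*-/- macrophages, in which 8 other libraries from mice 02, 03, 55 and 62 gave the difference from 1 hr to 3 hr. The *Cpeb4* value sums reads over the whole gene and is no check of these labels, with *Cpeb4*-/- means of 9.01 at 1 hr and 9.21 at 3 hr. All 853 large rises and all 621 large falls of WT had the same sign in *Cpeb4*-/-, and across the 13110 genes the differences of the genotypes correlated at 0.96, a description over genes that are not independent. A test of the genotype by time interaction (limma, mouse as a block) called 2 genes, 0.0153% of those tested, and 1014 genes had an unadjusted p under 0.05, which is 7.73%. The median SE of the interaction was 0.11, and no cage held both genotypes, so cage and genotype cannot be told apart.

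*Slc13a3*, a carrier for dicarboxylates such as succinate and itaconate, rose in WT from 6.85, 7.47, 7.02 and 7.13 to 8.33, 9.11, 8.29 and 8.43 (difference 1.42, SE 0.09). In *Cpeb4*-/- it lay between 4.85 and 5.34 at 1 hr and between 5.26 and 5.64 at 3 hr, a difference of 0.29, and the interaction for *Slc13a3* (*Cpeb4*-/- minus WT) was −1.13 (SE 0.12, adjusted p = 0.0089 from limma). *Rnase6*, an antimicrobial ribonuclease, fell in WT from 8.08, 7.98, 8.27 and 8.15 to 7.95, 7.54, 7.91 and 7.68 (difference −0.35, SE 0.08), whereas in *Cpeb4*-/- it lay between 7.80 and 8.14 at 1 hr and between 8.46 and 9.19 at 3 hr (difference 0.85). The interaction of *Rnase6* was 1.20 (SE 0.11, adjusted p = 0.0073 from limma). The WT fall of *Rnase6* was not called without mouse 69 (difference −0.32, adjusted p = 0.059 from limma) or without mouse 87 (−0.35, adjusted p = 0.054). Neither interaction was called without the block or without mouse 69.

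**Figure D5:**
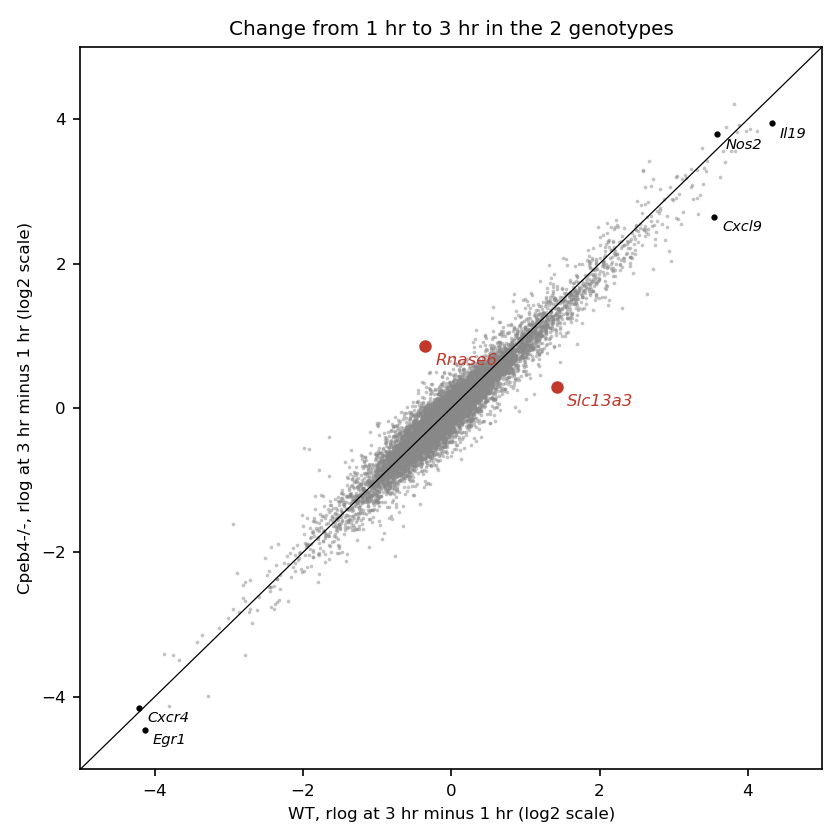
Difference between 3 hr and 1 hr in *Cpeb4*-/- (vertical axis) against that in WT (horizontal axis), both in rlog on a log2 scale, for 13110 genes, with the line of equal change. The points follow the line (r = 0.96), and the 2 genes called for the interaction, *Slc13a3* and *Rnase6*, are in red.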

How the data were processed

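The 8 WT libraries were made by the authors from poly(A) RNA with a kit that does not mark strand, so overlapping and antisense genes cannot be told apart, and aligned to mm10 with STAR 2.3.0e, counted per gene with featureCounts and transformed with DESeq2. The deposited values are rlog, on a log2 scale. They hold no read counts, so the depth behind each value is unknown here. No value column was left unused. Differences were tested with limma 3.58.1 (lmFit, eBayes with trend, mouse as a block) in R 4.3.3 over 13110 genes, with Benjamini-Hochberg adjustment and a threshold of 0.05, and the genotype by time term was fitted likewise over both genotypes. With 4 pairs an exact sign-flip test cannot go below p = 0.125, and was not used. The mouse was paired through the labels. Over all genes the deviations of a mouse at 1 and 3 hr correlated at −0.14 (mouse 25), 0.47 (69), 0.67 (87) and −0.19 (88). Over 54 and 53 genes that differed stably between mice at the other times (between-mouse SD over 0.3 and over 3 times the residual), each library at 1 and 3 hr correlated best with its own mouse (0.915 to 0.983). On simulated data the WT fit recovered 84 of 100 changes of 1 and 45 of 100 changes of 0.5, with 5 false calls. The genotype by time fit recovered 75 and 40 of 100, with 7 false calls.

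Named genes were the 12 largest rises and falls with 1 direction in all mice, fixed anchor genes of 45 lists, the largest called rise and fall of each list and the genes called for the interaction, and other list members, chosen after their values were seen, are given as examples of their list. The members and lists were chosen with earlier results of these data known. Alternatives were no block or a random mouse effect, other filters, eBayes settings, scalings and libraries, single batches and single mice left out. Transcript lengths were those of GENCODE for 12794 genes. Python 3.11.15, numpy 2.4.6, pandas 2.3.3, scipy 1.17.1 and matplotlib 3.10.9 were used. A few genes are not reported here.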

Additional observations from a re-analysis of the deposited data

Results flagged for a closer look

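In groups of 4 libraries, the highest or lowest value of a gene was set against the range of its group (Dixon's ratio at the 95% level, which chance alone passes in about 1 of 20 groups). Of 364 groups, 182 named genes at 2 times, 17 (4.67%) passed, close to that share. Mouse 88 at 3 hr accounted for 8 of them: *Ier2* (10.8), *Il1b* (15.6), *Tnfsf9* (12.7) and *Il10* (11.3) were its low values, and *Gbp5* (15.1), *Cd80* (7.98), *Bcl2a1a* (7.28) and *Hspa5* (15.1) its high ones. At 3 hr mouse 69 stood low in *Stat2* (13.8) and *Cdc6* (5.73) and high in *Slc3a2* (13.5), and mouse 25 high in *Edn1* (12.3). At 1 hr the single values were *Mx1* in mouse 25 (11.6), *Rsad2* in mouse 69 (13.4, the lowest), *Ptger2* in mouse 69 (7.64), *Bcl2a1a* in mouse 88 (6.43) and *Cycs* in mouse 87 (6.22). The 3 other mice had *Bcl2a1a* between 3.61 and 3.87 at 1 hr and between 4.11 and 4.33 at 3 hr.

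The change from 1 to 3 hr differed between genotypes, by the interaction test, in *Rnase6* (1.20) and *Slc13a3* (−1.13, *Cpeb4*-/- minus WT).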

How the results depend on the processing

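Counts of genes higher and lower at 3 hr stayed within 1.5 times the reported 3351 and 3807 under all alternatives except batch 1 alone, with 1742 and 1671 (2 mice). Without the mouse block they were 3257 and 3642, and leaving out 1 mouse gave 2512 to 3494 higher and 2732 to 4021 lower. Batch 2 alone, also 2 mice, gave 3338 and 3758. With 2 mice the test leans on the variance moderated by eBayes, so these counts are no replication. *Il1a* was called in batch 2 (0.27) although mice 69 and 87 differed by −0.11 and 0.66. Median centring gave 3896 and 3145, a share of 55.3% higher among calls against 46.8%. An alternative chosen after seeing the data, which removed trends with transcript length and GC content from each library, gave 3694 and 4283. The interaction was called for 2 genes with the mouse block and 0 without it, and for 0 to 4 when 1 mouse was left out. For single named genes under these alternatives, 2749 fits kept their side of the threshold, 107 lost a call and 48 gained one, and no difference called in the reported fit changed direction. Quantile normalization, called *Il1b* (−0.30), *Ccl2* (−0.33), *Nfkbia* (−0.35), *Tnfaip3* (−0.22) and *Csf1r* (−0.31) lower. Medians of gene groups between −0.09 and 0.09 changed sign under quantile normalization, median centring or the length and GC alternative in 12 groups.

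The rlog values carry no depth, understate changes of weakly expressed genes and come from 4 mice. With the mouse as a block, p-values rest on how the change between the times varied among these mice, moderated by eBayes. Constant differences in level between the mice are removed by the block. Within a time, deviations of single libraries followed transcript length (r from −0.43 to 0.45), while the mean difference did so at 0.065. The differences of single mice did so at −0.09 (mouse 25), 0.0002 (69), 0.08 (87) and 0.25 (88).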

Other observations

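Other gene groups, put together after the values had been seen and therefore given as descriptions, also held genes that moved between 1 and 3 hr. Over all genes tested 25.6% were higher and 29% lower. Of 19 circadian clock genes tested 14 fell and 2 rose, with a median of −0.75. *Per1* went from 9.97 to 7.62 (difference −2.35), *Nr1d1*, encoding the repressor REV-ERB-alpha, from 8.96 to 6.57 (−2.38) and *Dbp*, a clock output factor, from 7.90 to 5.83 (−2.07), while *Nfil3*, which opposes the *Dbp* product at the same sites, rose from 9.42 to 11.38 (1.96). Of 13 lysophospholipid, cannabinoid, adrenergic and related receptors tested 10 fell and 3 rose. The lysophospholipid receptors *Lpar5*, *Lpar6* and *S1pr1* fell by 2.32, 2.05 and 2.05, and *Lpar1*, *Lpar4* and *S1pr2* rose by 2.64, 0.84 and 0.70. Of 17 Notch pathway genes 6 rose and 8 fell. Besides *Dll1*, the receptors *Notch1* and *Notch2* rose by 1.86 and 1.05, and the ligands *Jag1*, *Jag2* and *Dll4* fell by 1.30, 0.87 and 0.83. *Dll4* lay near the filter, with means of 3.42 at 1 hr and 2.59 at 3 hr.

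*Cxcl11* had 2 levels among the WT mice once LPS was given. Untreated, the 4 mice lay between 6.95 and 7.04. At 6 hr mice 25 and 87 read 12.92 and 12.89 and mice 69 and 88 10.77 and 10.71, and at 9 hr 11.86 and 11.95 against 9.57 and 9.17. Its neighbour *Cxcl10* lay between 16.78 and 17.19 in all 4 at 6 hr. The pairs of mice did not follow the batches. *Bcl2a1a* was high in mouse 88 at each time with LPS (6.43, 7.28, 8.28 and 7.39 at 1, 3, 6 and 9 hr) and untreated it read 3.51, next to 3.41 to 3.53 in the others. The mice were of a mixed background, and genotypes at these genes were not analysed here.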
